A study of Oryza sativa with 6 samples.

Results

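The redox enzymes and glutathione transferases of the rice mesocotyl were followed through 3 ages in darkness and 3 lengths of light exposure. Members were the loci of the deposited expression table whose product name holds glutathione S-transferase, glutathione transferase, catalase isozyme, superoxide dismutase, ascorbate peroxidase, glutathione reductase, glutaredoxin, peroxiredoxin or thioredoxin, without ferredoxin names, and that reached at least 1 FPKM in some library. This gave 84 of 23787 loci above that level and of 35500 loci in all. They comprised 23 glutathione transferases, 28 thioredoxins and thioredoxin-like proteins, 13 glutaredoxins, 5 peroxiredoxins, 5 ascorbate peroxidases, 4 superoxide dismutases, 3 glutathione reductases, 2 catalases and 1 thioredoxin reductase. A further 6 loci matched by name but stayed below 1 FPKM. The nearest to the limit were glutaredoxin-C5 (ZS04g0482700) outside it, at a highest level of 0.737 FPKM, and putative glutaredoxin-C14 (ZS12g0405200) inside it, at 1.01 FPKM. In all 5 members reached 1 FPKM in a single library only, namely glutaredoxins C2 and C14 and transferases L2, T3-like (ZS08g0379300) and ZS10g0425000, so differences of these loci to that library follow in part from the filter.

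Mesocotyls, the stem-like organs that carry the shoot of a dark-germinated seedling upward, came from the indica cultivar P25. The light groups were seedlings that had spent 5 days in darkness and then were lit, for 30 min in 1 group, 60 min in the next and 24 h in the last. The dark groups were seedlings kept without light for 1, 3 or 5 days after sowing. No dark library matches the age of the 24-h light group, so its light exposure and its added day of age cannot be told apart. Each of these 6 groups is 1 sample sequenced as 1 library, so there are no replicates and no test was possible, and every difference is between single libraries. The deposited unit is FPKM, fragments scaled to transcript length and library size, and the sequencing depth behind them is unknown. Differences are log2 of the ratio of FPKM + 1, which understates differences of low loci, and "higher" or "lower" in a count means a difference of at least 1, that is 2-fold on that scale. In bulk tissue fewer cells of a type and less RNA per cell cannot be told apart.

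Reactive oxygen species are by-products of respiration and photosynthesis and also signals. Superoxide dismutases turn superoxide into hydrogen peroxide, which catalases, ascorbate peroxidases and peroxiredoxins then break down. Glutathione reductase keeps glutathione reduced, and thioredoxins and glutaredoxins are small proteins that reduce disulfides in other proteins. Glutathione transferases attach glutathione to reactive compounds, and their tau and phi classes are large in plants. Plastids hold their own set of these enzymes, some of which couple metabolism to light.

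The libraries differed in ways that touch the results below. Library sums lay between 336212 and 359808 FPKM. In the 3-day dark library 1 locus, ZS07g0251700, held 14.9% of all FPKM. The 9 photosynthesis marker loci (chlorophyll a-b binding proteins and the small Rubisco subunit) summed to 61.3, 21.1 and 190 FPKM at 1, 3 and 5 days of darkness and to 26.2, 839 and 42.7 FPKM at 30 min, 60 min and 24 h under light, with 1, 6, 1, 3, 0 and 1 of them listed at 0 in that order. The 38 epidermis and cuticle marker loci summed to 1016, 398 and 432 FPKM in the dark libraries and to 467, 1399 and 920 FPKM in the light libraries, with 4 to 12 listed at 0. Of the 31 that reached 1 FPKM, 12 were higher in both the 60-min light and the 1-day dark library than in all other libraries and 2 were lower in both, so the list did not move as one. A lipid-transfer protein 1 (ZS01g0679800) stood at 430.5 and 332 FPKM in these libraries and at most at 0.805 FPKM elsewhere, while lipid-transfer protein ZS05g0064800 stood at 47.2 and 5.03 FPKM in them and at 177 to 211 FPKM elsewhere. Loci taken as root markers (Casparian strip membrane protein, SHORT-ROOT or SCARECROW in the name) summed to 59.7 to 138 FPKM per library. Most were scarecrow-like proteins, and scarecrow-like protein 1 (ZS01g0731600) gave 45.2 of the 138 FPKM at 30 min of light. Loci taken as seed markers (glutelin, prolamin or alpha-amylase in the name) summed to 32.6 to 96.3 FPKM. An alpha-amylase/trypsin inhibitor (ZS10g0072000) gave 60.2 of the 96.3 FPKM at 5 days of darkness. Such names alone do not mark root or seed tissue. Shoot meristem loci summed to 59.6 to 92.7 FPKM. No marker that defines the mesocotyl was used, so the tissue label could be compared only with markers of other tissues.

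Together the 84 loci took 0.812%, 1.12% and 1.11% of the FPKM sum in the dark series and 1.22%, 0.871% and 1.10% in the light series. Levels differed widely among members. The 10 loci that reached 100 FPKM in some library were thioredoxin H1, catalase isozymes A and B, cytosolic ascorbate peroxidase 1, superoxide dismutase 1, the dehydroascorbate-reducing transferase DHAR2, peroxiredoxin-2C, a glutaredoxin, the H-type thioredoxin and the transferase GSTF2. At the other end, 21 loci stayed below 10 FPKM in every library. Between their highest and lowest library 65 members (77.4%) differed by at least 2-fold, close to the 74.5% of all loci.

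**Figure D1:**
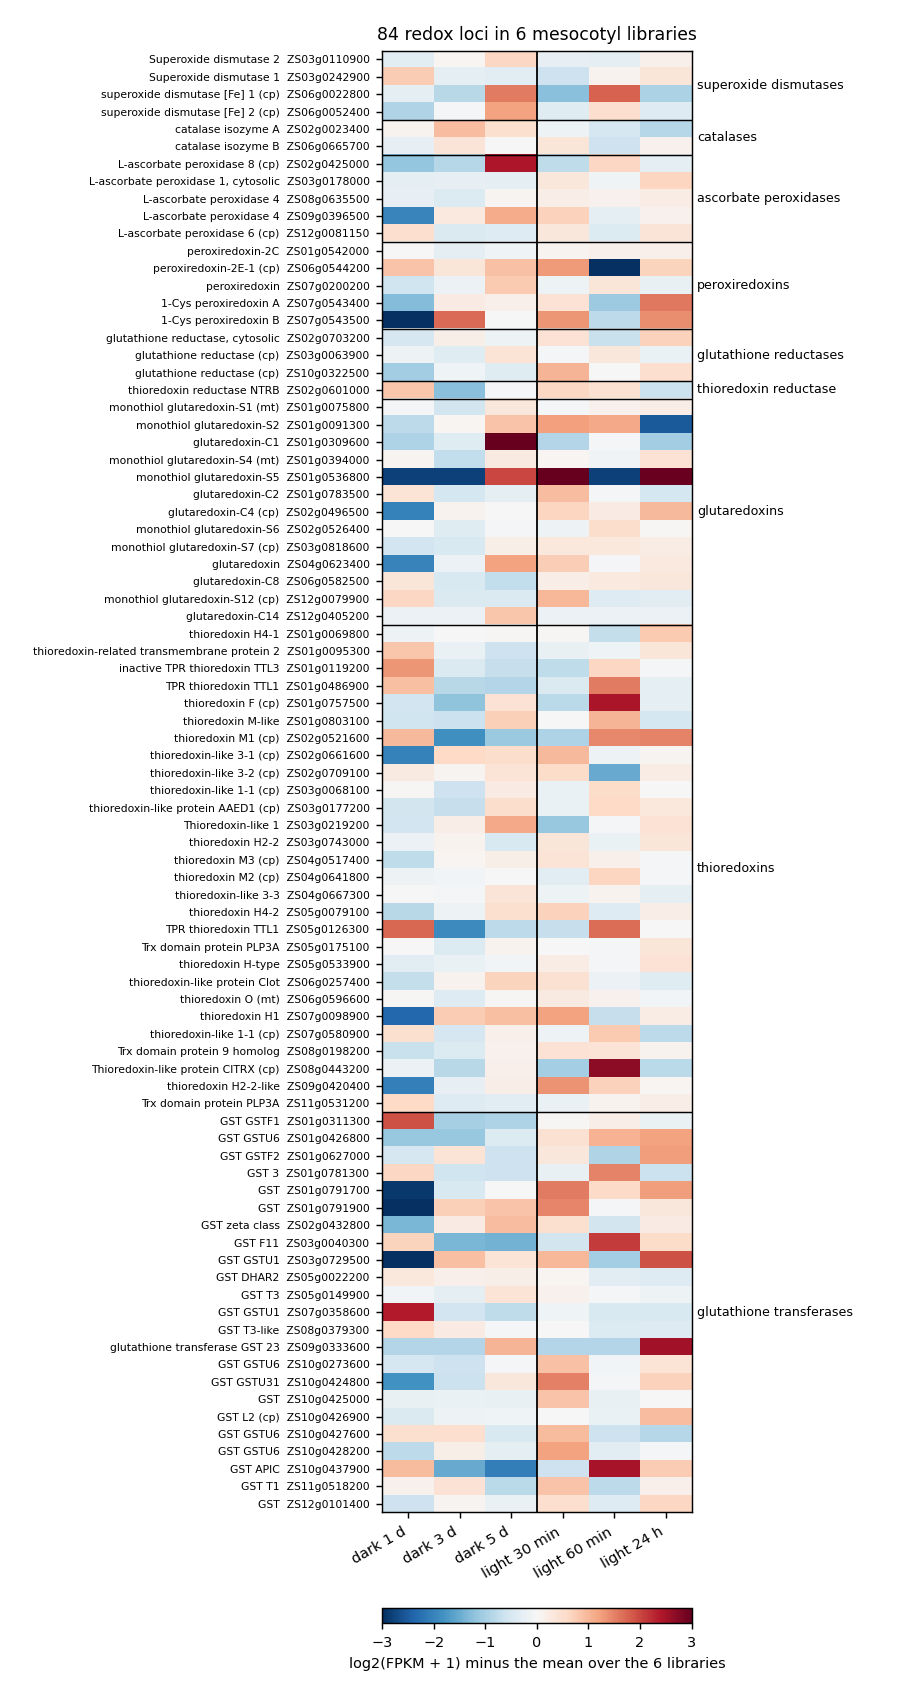
Heat map of the 84 redox loci (rows, grouped by family) in the 6 libraries (columns, 1 library each); colour is log2(FPKM + 1) minus the locus mean over the 6 libraries, with the scale ending at -3 and 3, and cp and mt mark chloroplastic and mitochondrial product names. Single libraries stand out for some loci, as in the 5-day dark value of glutaredoxin-C1 (21.3 FPKM) and the 60-min light value of thioredoxin-like protein CITRX (30.4 FPKM).

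Superoxide dismutases differed in profile. Superoxide dismutase 1 (ZS03g0242900), which the deposited annotation places in the cytoplasm with copper and zinc, stood at 344, 166 and 159 FPKM at 1, 3 and 5 days of darkness and at 131, 219 and 260.2 FPKM at 30 min, 60 min and 24 h under light. It was the most abundant of the 4 in every library, highest at 1 day. Superoxide dismutase 2 (ZS03g0110900), of the same annotation, lay between 15.9 and 31.3 FPKM and passed 2-fold in none of the 7 comparisons.

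The plastid iron superoxide dismutases had another profile. Iron superoxide dismutase 1 (ZS06g0022800), annotated to the chloroplast nucleoid, stood at 6.74, 4.26 and 26.3 FPKM in darkness and, under light, at 2.90, 30.7 and 3.79 FPKM. Iron superoxide dismutase 2 (ZS06g0052400) stood at 5.14, 10.0 and 25.3 FPKM across the dark ages and at 7.95, 15.1 and 7.70 FPKM in light. Both were high in the 5-day dark and the 60-min light libraries and low after 30 min and 24 h of light. After 30 min of light they were lower than at 5 days of darkness by log2 differences of -2.81 and -1.56, and after 24 h by -2.51 and -1.60. The 3-day dark values lay near those of 30 min and 24 h of light, so with that library as control neither locus was past 2-fold in these light libraries.

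Catalase isozyme A (ZS02g0023400), one of the enzymes that split hydrogen peroxide in peroxisomes, stood at 392, 704 and 517 FPKM at 1, 3 and 5 days of darkness. In light it stood at 331, 259 and 201 FPKM after 30 min, 60 min and 24 h. All 3 light values lay below all 3 dark values, though none by 2-fold against the lowest of them. The share of all loci with light and dark values apart, in either direction, was not counted. Such a split also occurred in steady loci, as in peroxiredoxin-2C, at 217 to 265 FPKM in darkness and 280 to 294 FPKM in light. After 24 h the log2 difference to the 5-day dark library was -1.36, and after 60 min it fell just short of the limit. Catalase isozyme B (ZS06g0665700) stood at 135, 209.8 and 161 FPKM over the dark series and at 207, 104 and 177 FPKM over the light series, and the dark and light values overlapped.

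Ascorbate peroxidases remove hydrogen peroxide with ascorbate. The cytosolic ascorbate peroxidase 1 (ZS03g0178000) stood at 327, 333 and 325 FPKM in darkness and at 503, 363 and 619 FPKM at 30 min, 60 min and 24 h under light. The dark values lay close together, and all 3 light values were above them, by a log2 difference of 0.93 after 24 h against 5 days of darkness. Catalase A was thus the more abundant at every dark time and ascorbate peroxidase 1 in every light library. Chloroplastic ascorbate peroxidase 8 (ZS02g0425000) stood at 0.333, 0.648 and 15.0 FPKM in darkness and, under light, at 0.747, 3.54 and 1.46 FPKM. It was high only in the 5-day dark library, and its differences to that library were -3.19, -1.82 and -2.70 after 30 min, 60 min and 24 h. Among the other 3 loci, ascorbate peroxidase 4 at ZS08g0635500 stayed between 22.3 and 35.1 FPKM. A second locus of that name (ZS09g0396500 and ZS09g0396600 merged) stood at 0.301, 5.34 and 10.1 FPKM in darkness and, under light, at 7.36, 3.31 and 4.68 FPKM. Ascorbate peroxidase 6 (ZS12g0081150 and ZS12g0081200 merged) lay between 16.8 and 33.1 FPKM.

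Peroxiredoxins reduce peroxides through a reactive cysteine. Peroxiredoxin-2C (ZS01g0542000) was the steadiest abundant member, between 217 and 294 FPKM over the 6 libraries, and was the only member that varied by less than 0.5 on the log2 scale. The pair of 1-Cys peroxiredoxins, a class known from barley and Arabidopsis for its seed proteins, had adjoining identifiers. The B locus (ZS07g0543500) was listed at 0 and stood at 39.9 and 11.7 FPKM at 1, 3 and 5 days of darkness, then at 30.4, 6.33 and 32.1 FPKM at 30 min, 60 min and 24 h under light. The A locus (ZS07g0543400) was listed at 0 and stood at 1.96 and 1.75 FPKM, then at 2.33, 0.169 and 6.39 FPKM. Both were low in the 1-day dark and 60-min light libraries. They are close copies by name, so reads that could fit both make their split uncertain. Peroxiredoxin-2E-1 (ZS06g0544200), chloroplastic by name, stood at 28.8, 20.03 and 29.1 FPKM across the dark ages and at 38.6, 0 and 24.9 FPKM in light; the listed 0 at 60 min can be a failed estimate. The fifth locus (ZS07g0200200) lay between 3.31 and 10.4 FPKM.

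**Figure D2:**
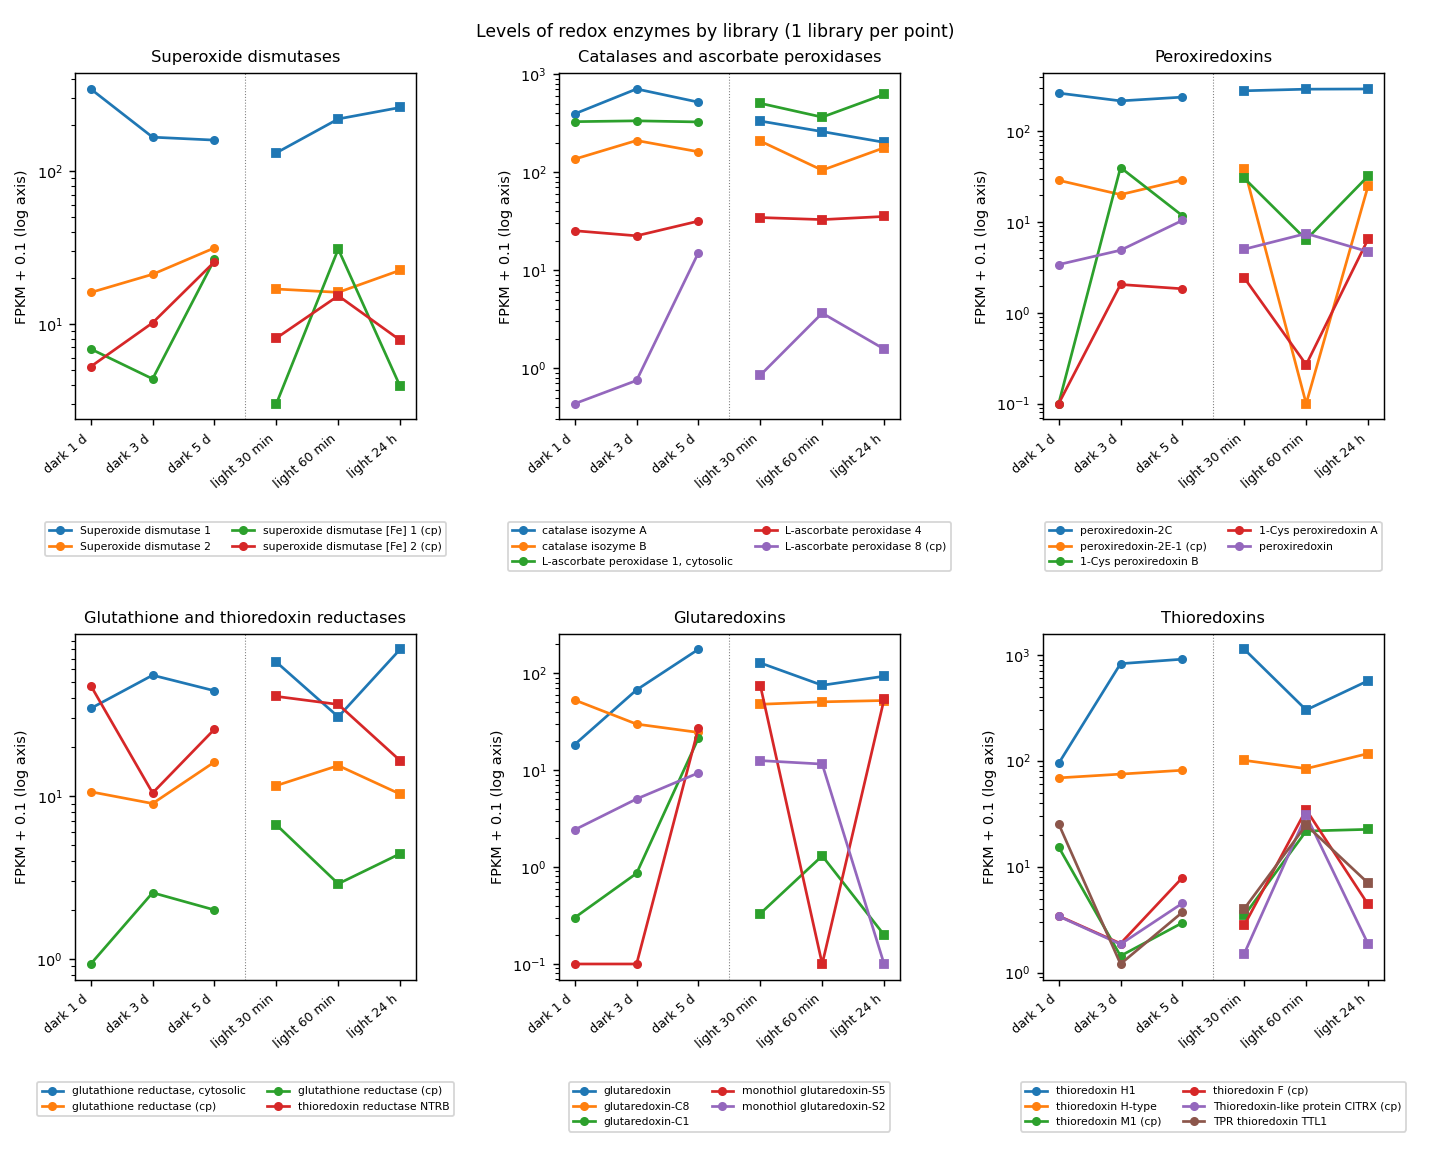
FPKM + 0.1 on a log axis for 29 redox loci in 6 family panels, with libraries in time order (not to scale), circles for dark and squares for light libraries, 1 library per point. Catalase isozyme A lies lower in all 3 light libraries (201 to 331 FPKM) than in the dark (392 to 704 FPKM), while cytosolic ascorbate peroxidase 1 lies higher in light (363 to 619 FPKM) than in the dark (325 to 333 FPKM). The share of all loci with such a split was not counted. Points at 0.1 are listed at 0.

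The reductases that feed these systems differed in profile. Cytosolic glutathione reductase (ZS02g0703200) stood at 34.5, 55.2 and 44.3 FPKM over the dark series and at 66.4, 30.6 and 79.7 FPKM over the light series. It was highest after 24 h and lowest after 60 min of light. One chloroplastic glutathione reductase (ZS10g0322500) stood at 0.831, 2.45 and 1.90 FPKM in darkness and, under light, at 6.56, 2.79 and 4.33 FPKM, with a log2 difference of 1.38 after 30 min against 5 days of darkness. The other (ZS03g0063900) lay between 8.91 and 16.1 FPKM and passed 2-fold in no comparison. Thioredoxin reductase NTRB (ZS02g0601000), which passes electrons from NADPH to thioredoxins, stood at 47.7, 10.4 and 25.7 FPKM across the dark ages and at 40.9, 36.5 and 16.4 FPKM in light. Its 3-day dark level was the lowest, -2.10 on the log2 scale against 1 day.

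Several glutaredoxins were high in some libraries and at or near 0 in others. Glutaredoxin-C1 (ZS01g0309600) stood at 0.201, 0.761 and 21.3 FPKM at 1, 3 and 5 days of darkness and at 0.231, 1.20 and 0.0996 FPKM at 30 min, 60 min and 24 h under light. It was high in the 5-day dark library alone. Monothiol glutaredoxin-S5 (ZS01g0536800) was listed at 0, 0 and 27.0 FPKM over the dark series and at 74.3, 0 and 53.7 FPKM over the light series; these zeros too can be failed estimates. Monothiol glutaredoxin-S2 (ZS01g0091300) stood at 2.32, 4.94 and 9.27 FPKM in darkness and, under light, at 12.4, 11.4 and 0 FPKM, where the 0 after 24 h can be a failed estimate.

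The most abundant glutaredoxin (ZS04g0623400) stood at 18.3, 67.2 and 176 FPKM over the dark series, higher at each later time, and at 128, 74.9 and 93.0 FPKM in the light. Glutaredoxin-C8 (ZS06g0582500) went the other way, with 52.8, 29.7 and 24.4 FPKM in the dark and 47.7, 50.5 and 52.1 FPKM in the light. Its 3 light values lay above the 3-day and 5-day dark values and below the 1-day value. The mitochondrial glutaredoxins S1 (ZS01g0075800) and S4 (ZS01g0394000), monothiol glutaredoxin-S6 (ZS02g0526400) and chloroplastic S7 (ZS03g0818600) stayed between 7.08 and 25.7 FPKM. The remaining 4 glutaredoxins, C2, C4, C14 and S12, reached at most 6.97 FPKM and were each listed at 0 in at least 1 library.

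Thioredoxin H1 (ZS07g0098900), known as an abundant protein of rice phloem sap, had the highest value of all members. It stood at 94.1, 824 and 908 FPKM at 1, 3 and 5 days of darkness and at 1127, 301 and 568 FPKM at 30 min, 60 min and 24 h under light. The 1-day dark library was the lowest and the 60-min light library the next lowest, with log2 differences of 3.12 for 3 days against 1 day and -1.59 for 60 min of light against 5 days of darkness. Of the other H thioredoxins, some varied less. The H-type locus ZS05g0533900 lay between 68.7 and 117 FPKM, thioredoxin H2-2 (ZS03g0743000) between 50.8 and 89.6 and thioredoxin H4-2 (ZS05g0079100) between 18.8 and 55.8 FPKM. The H2-2-like locus ZS09g0420400 stood at 0.920, 5.76 and 8.25 FPKM across the dark ages and at 19.5, 11.8 and 7.38 FPKM in light, with its lowest value, like that of H1, at 1 day of darkness.

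Several plastid thioredoxins were highest after 60 min of light, as many other loci were. In that library 8 of all 28 thioredoxins had their highest value (28.6%), and 7 of 21 members with chloroplast in the name (33.3%). The share was 46.6% of the 611 other loci with chloroplast in the name and 25.2% of all loci. Thioredoxin F (ZS01g0757500), which switches on carbon fixation enzymes in illuminated chloroplasts, stood at 3.33, 1.78 and 7.78 FPKM over the dark series and at 2.70, 34.4 and 4.30 FPKM over the light series. The thioredoxin-like protein CITRX (ZS08g0443200), whose Arabidopsis counterpart takes part in plastid gene expression, stood at 3.30, 1.75 and 4.41 FPKM in darkness and, under light, at 1.41, 30.4 and 1.76 FPKM. Both stood alone at 60 min, by log2 differences of 2.01 and 2.53 against 5 days of darkness. Thioredoxin M1 (ZS02g0521600) stood at 15.2, 1.34 and 2.85 FPKM across the dark ages and at 3.36, 21.6 and 22.4 FPKM in light, so it was also high at 24 h. Thioredoxin M2 (ZS04g0641800) lay between 17.98 and 36.0 FPKM. In the opposite direction, thioredoxin-like 3-2 (ZS02g0709100) stood at 6.76, 5.78 and 7.58 FPKM over the dark series and at 8.45, 1.25 and 6.48 FPKM over the light series.

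Among thioredoxin-like proteins of other build, the loci named TPR repeat-containing thioredoxin TTL1 were highest in the 60-min light and 1-day dark libraries. These proteins are known in Arabidopsis for roles in osmotic stress tolerance. ZS05g0126300 stood at 25.2, 1.10 and 3.61 FPKM in darkness and, under light, at 3.91, 24.6 and 6.90 FPKM. ZS01g0486900 stood at 22.3, 5.96 and 5.73 FPKM across the dark ages and at 8.29, 35.5 and 9.09 FPKM in light. For both, the 1-day dark and 60-min light values were above all 4 others. Thioredoxin-like 1 (ZS03g0219200) stood at 9.86, 17.8 and 34.6 FPKM over the dark series and at 6.37, 14.8 and 21.1 FPKM over the light series. Inactive TTL3 (ZS01g0119200) stood at 11.9, 2.85 and 2.20 FPKM over the dark series and at 2.05, 6.95 and 3.93 FPKM over the light series. The 12 thioredoxin loci not named here by value lay between 1.07 and 34.9 FPKM in all 6 libraries.

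Of the 23 glutathione transferases, all 23 carry the gene ontology term glutathione transferase activity in the deposited table and 19 the pathway term Glutathione metabolism. DHAR2 (ZS05g0022200), which regenerates ascorbate, was the most abundant and stood at 322, 286 and 293 FPKM in darkness and, under light, at 270.1, 206 and 198 FPKM. All 3 light values were below all 3 dark values, by less than 2-fold, a split whose share over all loci was not counted. The next highest values of the family were those of GSTF2, F11 and a GSTU1 locus. By name 7 loci were of the tau class (GSTU), 3 of the phi class and 13 of other or unstated class.

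The members of the phi class by name, GSTF1, GSTF2 and F11, each had a profile of their own. Loci whose names state no class could belong to it too. GSTF2 (ZS01g0627000) stood at 37.6, 72.0 and 34.9 FPKM across the dark ages and at 68.9, 28.3 and 129.8 FPKM in light. GSTF1 (ZS01g0311300) stood at 77.3, 9.41 and 9.94 FPKM over the dark series and at 20.4, 22.7 and 17.0 FPKM over the light series. F11 (ZS03g0040300) stood at 35.1, 7.81 and 7.44 FPKM in darkness and, under light, at 14.6, 96.0 and 32.4 FPKM. All 3 were higher after 24 h of light than at 5 days of darkness, GSTF2 and F11 by log2 differences of 1.87 and 1.98 and GSTF1 by 0.72.

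The loci named GSTU1 differed in opposite directions. ZS03g0729500 stood at 1.85, 47.2 and 33.1 FPKM across the dark ages and at 50.4, 11.7 and 95.7 FPKM in light. ZS07g0358600 stood at 21.2, 1.89 and 1.53 FPKM over the dark series and at 2.90, 2.11 and 2.14 FPKM over the light series. A shared product name thus did not mean a shared profile, with log2 differences of 4.08 and -2.94 for 3 days against 1 day. The 4 loci named GSTU6 were spread in level, with highest values between 3.28 FPKM at ZS10g0273600 and 34.2 FPKM at ZS10g0427600.

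Among the transferases, APIC and F11 were the furthest above their 5-day dark level after 60 min of light. Transferase APIC (ZS10g0437900) stood at 11.2, 1.23 and 0.502 FPKM in darkness and, under light, at 3.13, 34.1 and 9.62 FPKM. Glutathione S-transferase 3 (ZS01g0781300) stood at 6.49, 2.20 and 2.14 FPKM across the dark ages and at 3.15, 12.6 and 2.08 FPKM in light. F11, APIC and transferase 3 had their highest value at 60 min and their next highest at 1 day of darkness, with the 24-h value of F11 close behind at 32.4 FPKM. The summed epidermis and cuticle markers were also highest in these libraries, at 1399 and 1016 FPKM, with 12 of 31 loci higher and 2 lower in both, and their part in the result was not tested.

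Transferases with neighbouring identifiers were high after 30 min of light. ZS01g0791700 (merged with ZS01g0791800) stood at 0.11998, 5.07 and 7.26 FPKM over the dark series and at 23.7, 11.4 and 19.2 FPKM over the light series. Its neighbour ZS01g0791900 (merged with ZS01g0792000) stood at 0.0195, 15.9 and 17.7 FPKM in darkness and, under light, at 27.5, 8.94 and 12.01 FPKM. In both, the 30-min value was the highest of the 6 and the 1-day dark value the lowest.

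On the same numbered series, GSTU31 neighbours ZS10g0425000, and L2 (ZS10g0426900) neighbours a pair of GSTU6 loci. GSTU31 (ZS10g0424800 and ZS10g0424700 merged) stood at 0.0200, 1.30 and 3.54 FPKM across the dark ages and at 9.20, 2.47 and 4.79 FPKM in light. GSTU6 at ZS10g0427600 stood at 24.2, 24.5 and 12.1 FPKM over the dark series and at 34.2, 10.8 and 9.01 FPKM over the light series, and GSTU6 at ZS10g0428200 at 0.671, 2.24 and 1.39 FPKM and at 5.66, 1.27 and 1.81 FPKM. GSTU31 and these GSTU6 loci were highest after 30 min and lower at 60 min, as ZS10g0425000 was, whereas L2 was highest after 24 h. The table gives no positions, so the nearness of identifiers is not shown to be nearness on a chromosome, and reads that fit several such copies make the split among them uncertain.

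The theta-class transferase T1 (ZS11g0518200) stood at 22.7, 28.3 and 11.2 FPKM in darkness and, under light, at 38.3, 11.5 and 23.0 FPKM. The zeta-class locus ZS02g0432800, annotated with the enzyme number of a tyrosine-breakdown isomerase, stood at 6.45, 21.8 and 35.7 FPKM across the dark ages and at 25.9, 12.2 and 21.8 FPKM in light. A merged locus with the same enzyme number (ZS12g0101400 and ZS12g0101500) lay between 24.2 and 58.6 FPKM. Transferase GST 23 (ZS09g0333600) was listed at 0, 0 and 2.76 FPKM over the dark series and at 0, 0 and 9.50 FPKM over the light series. The remaining transferases were low, with GSTU6 at ZS10g0273600 between 0.513 and 3.28 FPKM, T3 (ZS05g0149900) between 2.57 and 4.71 and the T3-like locus ZS08g0379300 between 0.0528 and 1.10 FPKM. Transferase L2 (ZS10g0426900) and ZS10g0425000 were listed at 0 in some libraries and reached 1.57 FPKM after 24 h and 1.09 FPKM after 30 min of light.

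**Figure D3:**
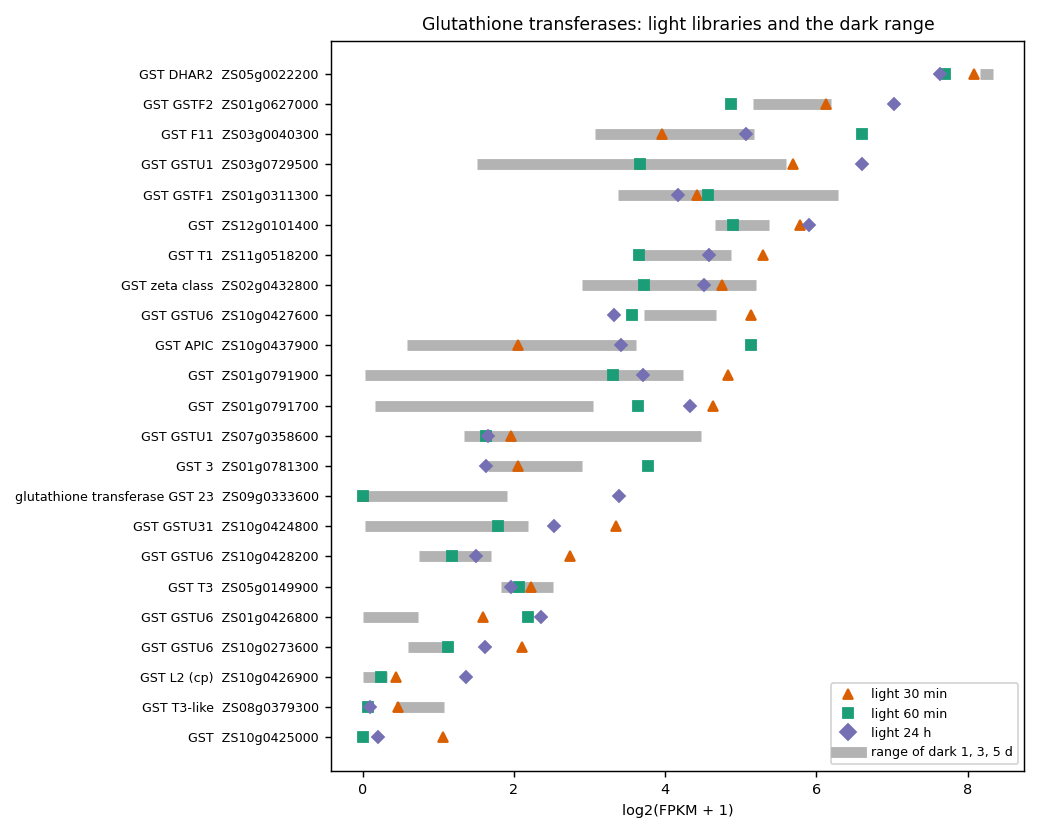
The 23 glutathione transferases (rows, by highest FPKM) on a log2(FPKM + 1) axis, with a grey bar from the lowest to the highest of the 3 dark libraries and 1 symbol for each light library. Symbols right of their bar are above all dark values, as for F11 and APIC at 60 min (96.0 and 34.1 FPKM) and for GSTF2 and the GSTU1 locus ZS03g0729500 at 24 h (129.8 and 95.7 FPKM).

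Between 3 days and 1 day of darkness, 13 of 84 members were at least 2-fold higher (15.5%, against 13.5% of all loci) and 13 lower (15.5%, against 14.5%). The members' median log2 difference was 0.00 and that of all loci -0.03. Higher were, besides thioredoxin H1 and GSTU1 at ZS03g0729500, the glutaredoxin ZS04g0623400 (1.82) and thioredoxin-like 3-1 (ZS02g0661600), at 7.04 FPKM at 3 days and 0.308 FPKM at 1 day. Lower were 5 thioredoxins, 5 glutathione transferases, superoxide dismutase 1 (-1.04), NTRB and chloroplastic glutaredoxin-S12 (ZS12g0079900). Scaled by the median ratio of loci, 21 members were higher and 11 lower, and over all loci the share of higher among called loci was 58.1% in place of 48.3%.

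Between 5 and 3 days of darkness, 13 members were higher (15.5%, against 14.5% of all loci) and 3 lower (3.57%, against 4.79%). The median was 0.34 for members and 0.27 for all loci. The higher members included both iron superoxide dismutases (2.37 and 1.25), ascorbate peroxidase 8 (3.28), glutaredoxin-C1 (3.66), the glutaredoxin ZS04g0623400 (1.38), thioredoxin F (1.66), thioredoxin M-like (ZS01g0803100, 1.35) and NTRB (1.23). Glutaredoxin-C14, also among the higher, is a member only through its 5-day dark value. The 3 lower members were 1-Cys peroxiredoxin B (-1.69), transferase T1 (-1.26) and GSTF2 (-1.02). With median-ratio scaling 9 were higher and 4 lower, and the share of higher among called loci over the whole table was 59.8% in place of 75.2%.

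After 30 min of light 13 members were higher than at 5 days of darkness (15.5%, against 9.49% of all loci) and 9 lower (10.7%, against 11.4%). Glutathione transferases made up 7 of the 13, that is 7 of 23 in the family (30.4%), with a family median of 0.87 against 0.00 for all loci. Against the 3-day dark library 7 of 23 transferases were higher too, beside 12.9% of all loci, with a median of 0.43, but only 4 loci were called against both dark libraries. T1, APIC and GSTU6 at ZS10g0427600 were called against the 5-day library alone. ZS10g0425000, among the 7 and the 4, and glutaredoxin-C2, among the 13, are members only through their 30-min value. With loci listed at 0 in any library left out, 8 of 71 members were higher than at 5 days of darkness. The 9 lower members were mostly those high in the 5-day dark library, namely both iron superoxide dismutases, ascorbate peroxidase 8, glutaredoxins C1 and C14, thioredoxin F (-1.25), CITRX (-1.17), thioredoxin-like 1 (-2.27) and GST 23. C14 is a member only through its 5-day dark value and could be called only against that library. Against the 3-day dark library 2 members were lower (2.38%, against 4.9% of all loci), and 1 of the 9 was among them.

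After 60 min of light 12 members were higher than at 5 days of darkness (14.3%, against 14.8% of all loci) and 14 lower (16.7%, against 12.8%). Among the higher were 6 thioredoxins and 5 glutathione transferases, led by APIC (4.55), F11 (3.52), thioredoxin M1 (2.55), CITRX (2.53) and the TTL1 loci (2.47 and 2.44). Among the lower were thioredoxin H1, ascorbate peroxidase 8, the glutaredoxin ZS04g0623400 (-1.22), the zeta-class transferase (-1.48) and GSTU1 at ZS03g0729500 (-1.42). Glutaredoxin-C14, a member only through its 5-day dark value, was also among them. Against the 3-day dark library 20 were higher (24% of all loci) and 11 lower (8.89%).

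After 24 h of light 12 members were higher than at 5 days of darkness (14.3%, against 11.6% of all loci) and 10 lower (11.9%, against 14.4%). Light and age cannot be told apart in this comparison. Glutathione transferases gave 8 of the 12 higher and none of the lower, with a family median of 0.45. Of the 8, L2 is a member only through its 24-h value, and of the 10 lower, glutaredoxin-C14 only through its 5-day dark value. The other 4 higher members were both 1-Cys peroxiredoxins (1.43 and 1.38), thioredoxin M1 (2.60) and glutaredoxin-C8 (1.07). Against the 3-day dark library, 9 of 23 transferases were higher and 1 lower, and over all 84 members 15 were higher (14.8% of all loci) and 3 lower (6.5%).

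**Figure D4:**
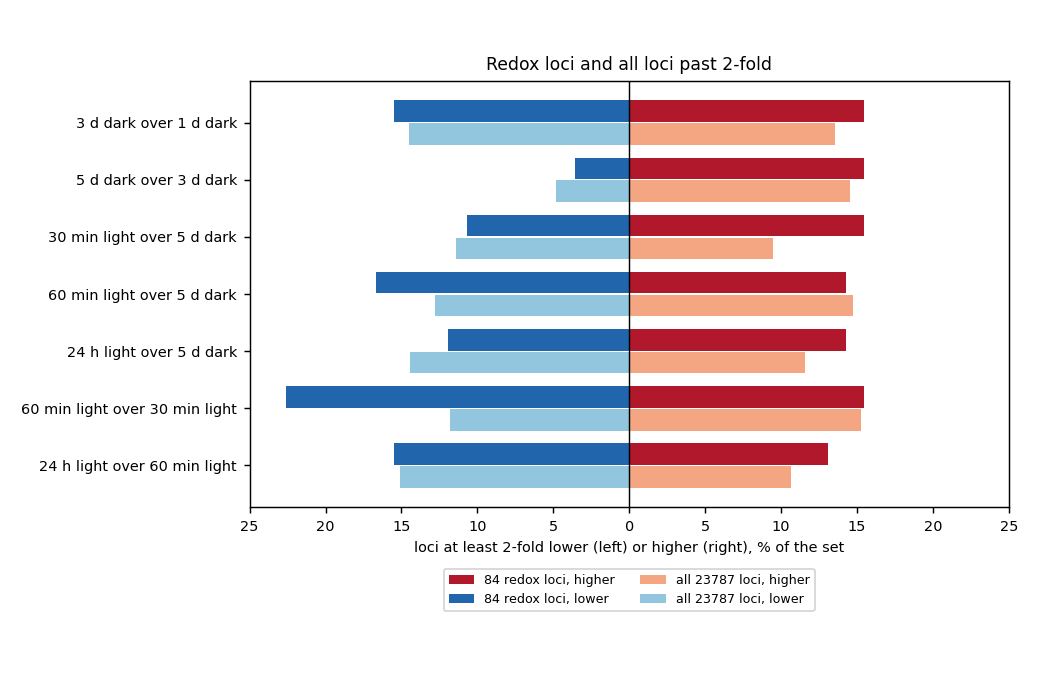
Shares of the 84 redox loci (dark bars) and of all 23787 loci (light bars) at least 2-fold lower (left) or higher (right) in each of 7 comparisons, in percent. The widest gaps are the members higher after 30 min of light than at 5 days of darkness (15.5% against 9.49%) and those lower after 60 min than after 30 min of light (22.6% against 11.8%). Both include loci that are members only through their 30-min value.

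Between 60 and 30 min of light, 13 members were higher (15.5%, against 15.2% of all loci) and 19 lower (22.6%, against 11.8%). Of the 19 lower, 9 were glutathione transferases, among them GSTU1 at ZS03g0729500 (-2.02), T1 (-1.65), GSTU6 at ZS10g0427600 (-1.58) and GSTU31 (-1.56). ZS10g0425000, a member only through its 30-min value, was also among the 9. Of the 13 higher, 8 were thioredoxins, led by CITRX (3.70) and thioredoxin F (3.26). Between 24 h and 60 min, 11 were higher (13.1%, against 10.6%) and 13 lower (15.5%, against 15.1%), with CITRX (-3.50), thioredoxin F (-2.74) and iron superoxide dismutase 1 (-2.73) among the lower. L2, a member only through its 24-h value, was among the 11. Without the 60-min library, that is for 24 h against 30 min of light, a comparison chosen after seeing the data, 6 members were higher (7.14%, against 6.23% of all loci) and 8 lower (9.52%, against 7.63%).

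Members with chloroplast in the product name numbered 21, and 611 other loci carry that word. Between 5 and 3 days of darkness 5 of the 21 were higher (23.8%) and none lower (median 0.63). Of the 611, 239 were higher (39.1%) and 12 lower (1.96%, median 0.72), against 14.5% and 4.79% of all loci. After 30 min of light against 5 days of darkness, 2 of the 21 were higher (9.52%) and 5 lower (23.8%, median 0.12). Of the 611, 32 were higher (5.24%) and 200 lower (32.7%, median -0.40), against 9.49% and 11.4% of all loci. Both sets thus held a larger share of lower loci than all loci did. After 60 min 3 of the 21 were higher and 3 lower (14.3% each, median 0.06). Of the 611, 109 were higher (17.8%) and 39 lower (6.38%, median 0.24), against 14.8% and 12.8% of all loci. After 24 h 2 of the 21 were higher (9.52%) and 3 lower (14.3%, median -0.21). Of the 611, 30 were higher (4.91%) and 192 lower (31.4%, median -0.47), against 11.6% and 14.4% of all loci. The redox members with chloroplast in the name did not share 1 profile. Peroxiredoxin-2E-1 and chloroplastic glutathione reductase at ZS10g0322500 had their highest value after 30 min, when iron superoxide dismutase 1 had its lowest. The summed photosynthesis markers were high at 5 days of darkness and 60 min of light, as iron superoxide dismutase 1 was. Thioredoxin F and CITRX were high at 60 min alone (34.4 and 30.4 FPKM). Their 5-day values, 7.78 and 4.41 FPKM, were the highest of their dark values. The marker sums were 26.2, 839 and 42.7 FPKM at 30 min, 60 min and 24 h under light and 61.3, 21.1 and 190 FPKM in the dark. Rubisco locus ZS12g0195100 gave 125 of the 190 FPKM. Rubisco locus ZS02g0059700 was lowest at 60 min, at 0.684 FPKM, so the list did not move as one. The part of the markers in the result was not tested.

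**Figure D5:**
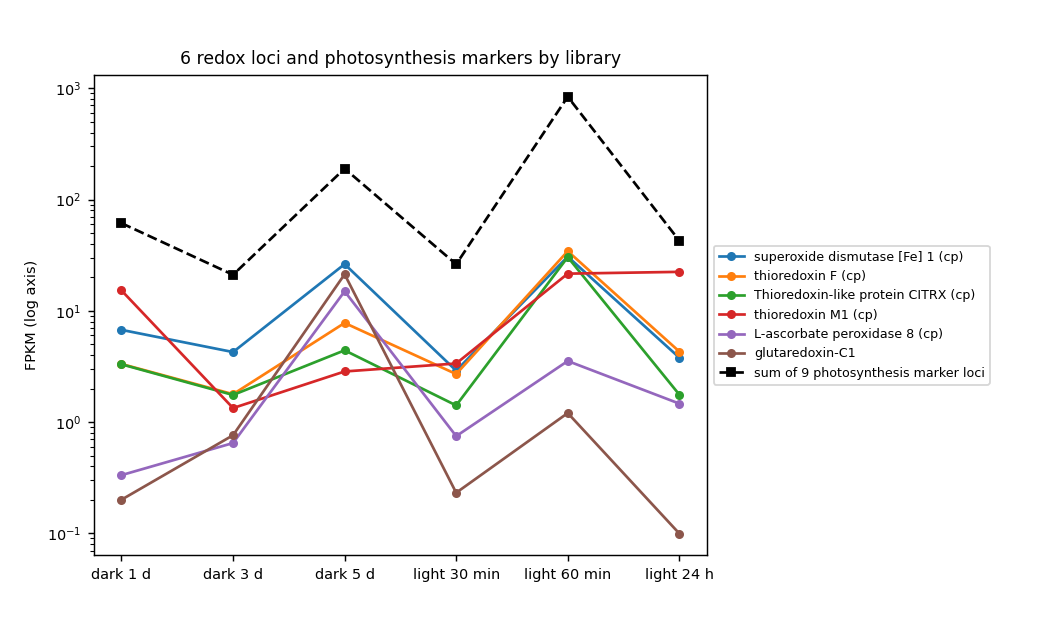
FPKM on a log axis of 6 redox loci (coloured) and the sum of 9 photosynthesis marker loci (black, dashed) in the 6 libraries, in time order and not to scale. Iron superoxide dismutase 1, thioredoxin F and CITRX are higher at 5 days of darkness and at 60 min of light than in the libraries on either side, as the marker sum is (190 and 839 FPKM), while ascorbate peroxidase 8 and glutaredoxin-C1 stand at 15.0 and 21.3 FPKM at 5 days and at most 3.54 FPKM elsewhere. Of the 5-day marker sum 125 FPKM are from 1 Rubisco locus, and not every marker locus follows the sum.

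Light values outside the whole dark range do not rest on the 5-day library alone. After 30 min of light 7 members were at least 2-fold above all 3 dark libraries (4.57% of all loci were) and 0 below (0.765%). They were 4 glutathione transferases, of which ZS10g0425000 is a member only through its 30-min value and so had to differ, glutathione reductase ZS10g0322500, glutaredoxin-S5 and the thioredoxin H2-2-like locus. Without ZS10g0425000 there were 6, and with median-ratio scaling of all loci 4. After 60 min 5 were above (5.53%), namely thioredoxin F, CITRX, F11, APIC and the low GSTU6 locus ZS01g0426800. In the same library 2 were below (0.895%), namely peroxiredoxin-2E-1 with its listed 0, which can be a failed estimate, and thioredoxin-like 3-2. After 24 h 6 were above (4.63%), of which 5 were transferases and 1 was 1-Cys peroxiredoxin A. Without L2, a member only through its 24-h value, there were 5. With median-ratio scaling 4 were above, and with a filter of 5 FPKM also 4. In the 24-h library 1 was below (1.14%), glutaredoxin-S2 with its listed 0.

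Of the other libraries, the 1-day dark library was the most like the 60-min light library over all loci, though several other pairs were more alike. Pearson's r of log2(FPKM + 1) between them was 0.855 over 23787 loci, the highest of any pair with the 60-min library, and 0.828 over the 84 members. These are correlations across loci, which are not independent, in single libraries. Between the 60-min light and 1-day dark libraries 23.9% of all loci were at least 2-fold apart. Over the members the median absolute log2 difference of the 60-min library was 0.674 to 1 day and 0.503 to 5 days of darkness. Of the members, 37 were nearer at 60 min to their 1-day than to their 5-day dark value, 46 were nearer to the 5-day value and 1 was equally near, whereas 12125 of all loci were nearer to the 1-day and 10587 to the 5-day value. The TTL1 loci, APIC and transferase 3 were high in both libraries, as was thioredoxin M1, which was also high after 24 h. Thioredoxin H1, GSTU1 at ZS03g0729500 and both 1-Cys peroxiredoxins were low in both. Over all loci the highest r of the 15 pairs was 0.907, between 24 h and 30 min of light (0.912 over the members), and over the members it was 0.922, between 30 min of light and 3 days of darkness.

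Other redox-related genes were taken by product name and gave 38 loci. Beside genes of glutathione, ascorbate and peroxide metabolism, the list held respiratory burst oxidases, ABC transporters of the C family and ubiquinol oxidases. It also held NADPH-forming dehydrogenases and methionine sulfoxide reductases. After 30 min of light 7 were higher than at 5 days of darkness (18.4%, against 9.49% of all loci) and 1 was lower (2.63%, against 11.4%), with a median of 0.51 against 0.00 for all loci. Of these 7, 2 were respiratory burst oxidases. The others were 1 each of ABC transporter, ubiquinol oxidase, methionine sulfoxide reductase, monodehydroascorbate reductase and ascorbate oxidase. After 60 min 6 were higher (15.8%, against 14.8%) and 3 lower (7.89%, against 12.8%), near the share of all loci on the higher side. After 24 h 8 were higher (21.1%, against 11.6%) and 2 lower (5.26%, against 14.4%), with a median of 0.31. Between 60 and 30 min of light 2 were higher (5.26%, against 15.2%) and 9 lower (23.7%, against 11.8%).

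ABC transporter C family member 3 (ZS01g0074900), of a family that carries glutathione conjugates into the vacuole, stood at 2.87, 9.96 and 23.8 FPKM in darkness and, under light, at 54.3, 12.5 and 13.2 FPKM. The respiratory burst oxidase B (ZS01g0289000), which makes superoxide outside the cell, stood at 42.2, 30.9 and 26.2 FPKM across the dark ages and at 62.3, 67.4 and 41.6 FPKM in light. Peroxisomal monodehydroascorbate reductase 4 (ZS02g0595900), which restores ascorbate, stood at 10.3, 5.55 and 6.78 FPKM over the dark series and at 16.5, 2.03 and 5.39 FPKM over the light series. All 3 had a 30-min value above every dark value. An ascorbate oxidase (ZS06g0482700) stood at 12.1 FPKM at 5 days of darkness and at most 1.49 FPKM elsewhere, and was the 1 locus lower after 30 min. Glucose-6-phosphate dehydrogenase (ZS04g0595000), a source of NADPH, stood at 70.4, 144 and 100.5 FPKM in darkness and, under light, at 131, 73.5 and 125 FPKM. Glutathione peroxidase 4 (ZS03g0273100) lay between 21.4 and 36.4 FPKM, and the glutathione synthetase loci ZS11g0579200 and ZS12g0394600 between 10.1 and 18.2 and between 11.1 and 24.1 FPKM.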

How the data were processed

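Poly(A) RNA of mesocotyls was sequenced in paired ends, per the labels' protocols, in 6 libraries, 1 per group. The authors deposited 1 table, which per the file headers gives FPKM for each locus in each library, with a p-value and q-value per locus that name no contrast and were not used. Bowtie 0.12.2 and mm8 (a build of the mouse genome) are listed in the submitters' processing notes without a role. Which aligner and annotation gave the FPKM is not given in the sources used here. FPKM holds no counts, so depth is unknown and no count test or interval was computed. Product names come from the table; 0 of 90 member gene names matched the reference gene table, so no coordinates or sequences are printed. Differences are log2((FPKM + 1)/(FPKM + 1)) over loci with at least 1 FPKM in some library, computed with pandas 2.3.3. The formula was checked on 5-day dark values changed by a set factor without noise, which tests the arithmetic and not the calls. Counts were recomputed under another pseudocount, filter, scaling or control library, and the closing section gives those that moved. Members and lists were chosen with earlier results of these data known. Named were all loci of families of up to 6, the 6 most abundant of larger families, and the 6 highest and 6 lowest differences per comparison among loci at 5 FPKM or more in either library. Loci listed at 0 in 1 library and at 10 FPKM or more in another were named too. Loci named beyond this were chosen after their values were seen. The library kit is not stated to mark strand, so reads of overlapping genes cannot be told apart, and close paralogs share reads.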

Additional observations from a re-analysis of the deposited data

How the results depend on the processing

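Of 98 counts of members recomputed, 81 stayed within 1.5 times the value reported. These included all 20 with a filter of 5 FPKM and all 14 with scaling to library sums. Neither setting changes the values much. The filter kept 73 of 84 members, and the library sums lay between 336212 and 359808 FPKM. With a pseudocount of 0.1 FPKM, 22 members were higher and 5 lower at 5 against 3 days of darkness, and 2 lay below the dark range after 24 h of light. With median-ratio scaling, 21 were higher at 3 days than at 1 day, 4 lay above the dark range after 30 min and 2 below it after 24 h. Leaving out loci listed at 0 left 8 higher after 30 min, 9 lower after 60 min, 7 higher after 24 h, each against 5 days of darkness, and 5 higher at 24 h against 60 min of light. With the 3-day dark library as control, 2 were lower after 30 min, 20 higher after 60 min and 3 lower after 24 h. Controls chosen after seeing the data gave 28 higher and 13 lower at 5 days against 1 day of darkness, and 6 higher and 8 lower at 24 h against 30 min of light. The cause of these shifts was not tested beyond the changed library or locus set itself. Of 399 values of named loci past 2-fold under another pseudocount or scaling, 392 stayed past it, 7 fell under it and 0 changed sign. The 133 values with the smaller pseudocount could only grow in size, so they could not fall under it. With median-ratio scaling 6 fell under it and with scaling to library sums 1. The named loci were in part picked for large differences. No paired analysis was possible because each group holds 1 library. Without replicates and with unknown depth, the error of each value is unknown.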
